A study of Mus musculus with 4 samples.

Results

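Respiratory complex assembly factors are nuclear-encoded mitochondrial proteins that help to build complexes I to V of the oxidative phosphorylation system without remaining in the finished enzymes. The 42 genes described here were chosen by name, as known assembly factors of these complexes that are no structural subunits, and the rule uses no measured value, although it was written with earlier results of these data known. They comprised 14 factors of complex I, 4 of complex II, 6 of complex III, 15 of complex IV and 3 of complex V. All 42 were found, on 1 row each among the 55387 rows per library. All 42 also passed the filter on low values, an averaged FPKM (the fragments of a gene per kilobase of its transcript, corrected for sequencing depth) above 1 in at least one genotype.

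Interscapular brown fat (BAT) was sequenced from 15-week-old male mice on a C57BL/6 background, housed at 22-24 °C, with 1 library per mouse. The 2 control mice were Sox4f/f littermates, which the labels call WT, and carry loxP-flanked Sox4 alleles without Cre. The 2 others were labelled Sox4-MKO, that is Sox4f/f mice with Myf5-Cre, whose recombinase acts in the lineage that forms both brown fat and skeletal muscle. The comparison asks how the loss of SOX4 in this lineage changes gene expression in BAT. Sox4 itself was at 1.98 and 1.06 FPKM in Sox4f/f mice, against 0.981 and 3.06 FPKM in mice labelled Sox4-MKO. These ranges overlapped and the log2 fold change was 0.20 (SE 0.43, unadjusted p = 0.673 by limma), so the mRNA level does not check the genotype. FPKM cover whole genes, and the deleted stretch could not be looked at separately. The study itself reported strongly reduced SOX4 protein in BAT of other, younger Sox4-MKO mice.

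The electron transport chain passes electrons from NADH (complex I) or succinate (complex II) through complex III to oxygen at complex IV, and complex V, the ATP synthase, uses the resulting proton gradient. Subunits from the nuclear and the mitochondrial genome are joined in modules, and each module has its own chaperones, cofactor-inserting enzymes and translocases. Brown adipocytes are packed with mitochondria, in which UCP1 lets protons return without ATP synthesis and so releases heat, and their ATP synthase content is known to be low compared with the rest of the chain.

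The libraries held an estimated 12200000 to 16500000 fragments. The 6 brown adipocyte markers, Ucp1 and Cidea among them, were detected in all 4 libraries and summed to 4168 and 4185 FPKM in Sox4f/f mice against 1979 and 2372 FPKM in mice labelled Sox4-MKO, and 4 of the 6 were called lower. Markers of other cell types moved with the genotype as well. The 10 skeletal muscle markers summed to 208 and 794 FPKM in Sox4f/f mice and to 15086 and 2722 FPKM in mice 1 and 2 labelled Sox4-MKO, with 9 of 10 called higher and none at 0 in any library. The 4 fibroblast and progenitor markers summed to 156 and 168 against 416 and 383 FPKM (4 of 4 called higher), the 5 macrophage markers to 118 and 188 against 240 and 255 FPKM (3 of 5), and the 4 white adipocyte markers to 212 and 163 against 511 and 596 FPKM (3 of 4). None of the pan-adipocyte (sums of 6962 to 9504 FPKM), endothelial (91.6 to 148 FPKM) or Schwann cell markers (18.6 to 63.6 FPKM) was called. B cell markers summed to 0.454 to 2.32 FPKM and none was tested, and Ms4a1, a defining marker of B cells, was listed at 0 in mouse 1 labelled Sox4-MKO. The part of these cell types in the results below was not tested. In a whole tissue, fewer cells of a type and less RNA per cell cannot be told apart.

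The summed level of assembly factor mRNA was lower in both libraries labelled Sox4-MKO than in either control. The same held for the FPKM sum over all rows, at 578011 and 544564 in Sox4f/f mice against 495145 and 472062. The 42 FPKM summed to 1927 and 1923 in Sox4f/f mice and to 1700 and 1499 in the libraries labelled Sox4-MKO. Cox17 alone made up a large part of this difference, and without it the sums were 1439 and 1481 against 1362 and 1190 FPKM. The median assembly factor was at 27.2 and 27.8 against 23.9 and 21.7 FPKM. The median log2 fold change over the 42 genes was -0.16, with a range from -0.85 to 0.28, and the median of all 12877 tested genes was -0.05. The estimate was below 0 for 33 genes and above 0 for 9, and for 21 genes it lay within 0.2 of 0. Of all 12877 tested genes 7206 had an estimate below 0 and 5671 above 0. Log2 fold changes are on the log2(FPKM + 1) scale, as the libraries labelled Sox4-MKO minus Sox4f/f, and understate the change of genes with low values.

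**Figure D1:**
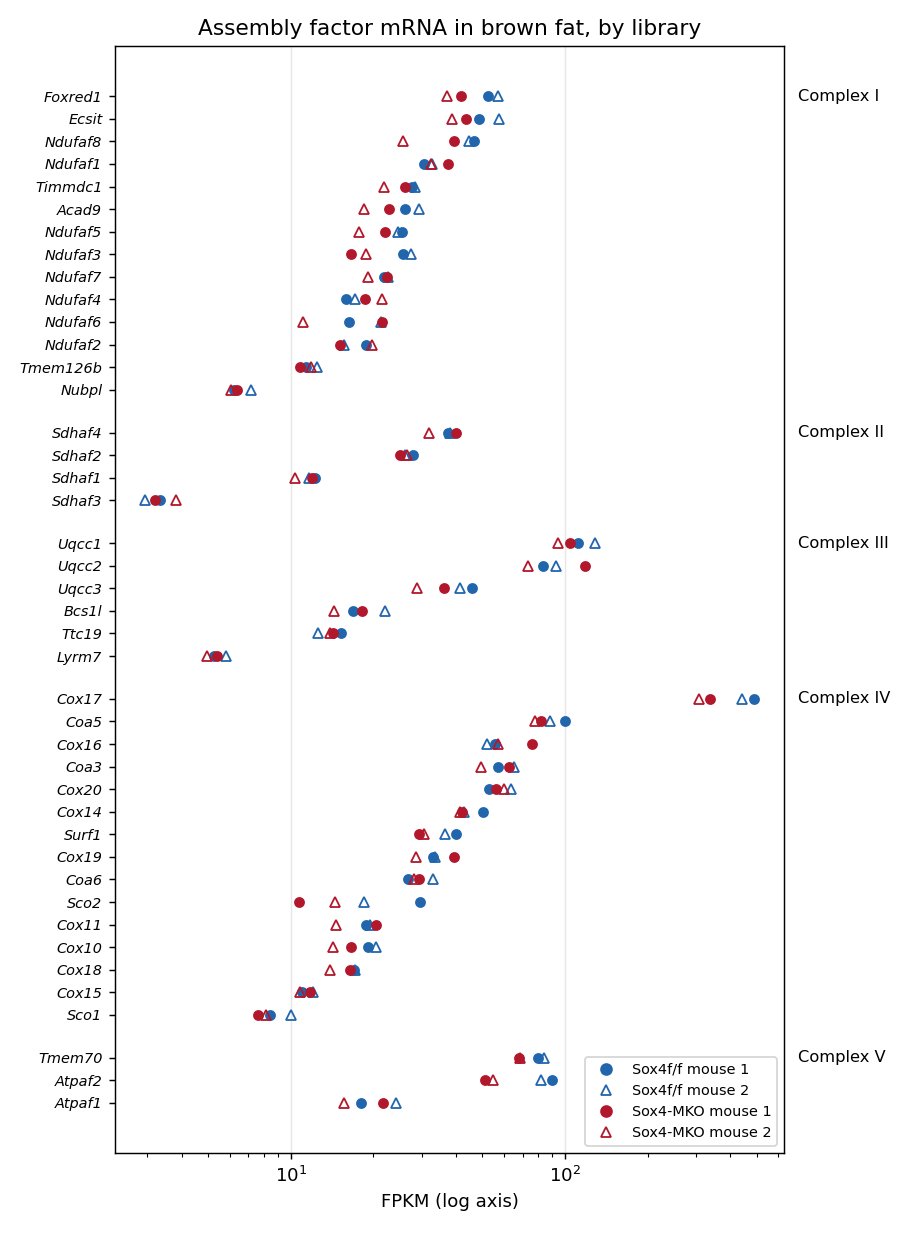
FPKM (log axis) of the 42 assembly factors in the 4 libraries, grouped by respiratory complex and ordered by mean level. Blue symbols are Sox4f/f mice and red symbols mice labelled Sox4-MKO, with circles for mouse 1 and triangles for mouse 2. Cox17 stands far to the right of all others at 309 to 488 FPKM and Sdhaf3 to the left at 2.95 to 3.80 FPKM.

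A gene was called changed at an unadjusted two-sided p under 0.05 by limma. By this rule 6 assembly factors were called lower (Atpaf2, Cox17, Ndufaf3, Foxred1, Sco2 and Surf1) and 0 higher, which is 14.3% of the 42 called lower. Over all tested genes 8.28% were called lower and 7.95% higher. After Benjamini-Hochberg adjustment over all tested genes 0 assembly factors and 0 genes in all had an adjusted p under 0.05, and the smallest adjusted p among assembly factors was 0.196. Both libraries labelled Sox4-MKO lay below both Sox4f/f libraries for 19 assembly factors (45.2%) and above both for 2 (4.76%), against 29.6% and 21.7% of all tested genes. The genotypes did not overlap for 51.3% of all tested genes, and they overlapped for the other 21 assembly factors. With 2 mice against 2 an exact permutation test cannot give a two-sided p below 0.333.

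**Figure D2:**
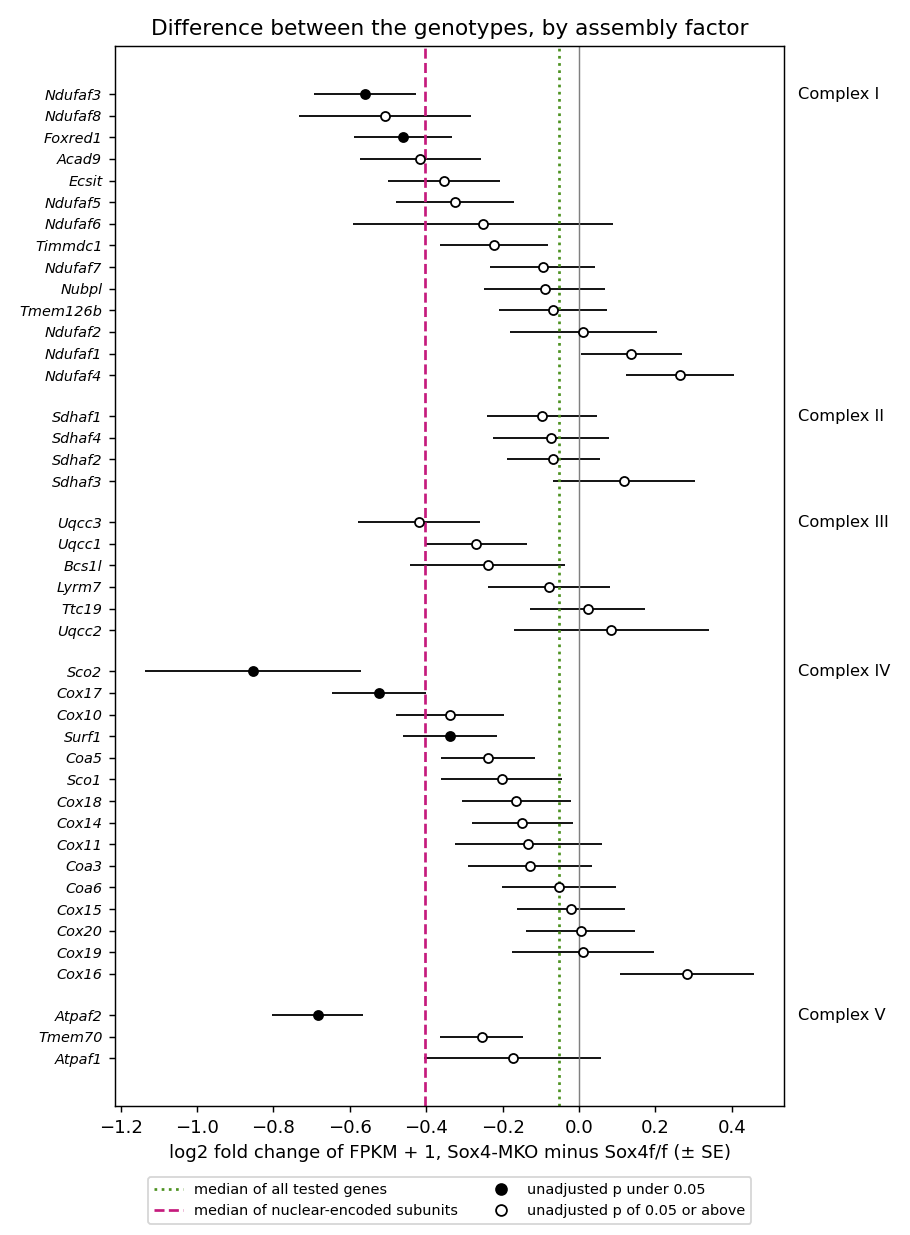
Log2 fold change of FPKM + 1, Sox4-MKO label minus Sox4f/f, with bars of 1 SE from limma, for the 42 assembly factors by complex. Filled circles have an unadjusted p under 0.05. The dotted line is the median of all tested genes (-0.05) and the dashed line the median of the nuclear-encoded subunits (-0.40), and 33 circles lie left of 0.

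The upstream stretches of 4 of the 6 genes called lower are shown. Sco2 also had such a stretch, of 40 bases at chr15:89373892-89373931, which held no match to the 9 motifs named below and is not printed. Cox17 had no matched promoter. The stretches are bases upstream of the RefSeq start in GRCm38.p6, 5' to 3' on the minus strand, that no GENCODE exon covers. The Ndufaf3 stretch is chr9:108567437-108567532, that of Foxred1 chr9:35211056-35211154 and that of Surf1 chr2:26916531-26916668, each ending at the start, and that of Atpaf2 is chr11:60417052-60417144, ending 17 bases before it. The RefSeq start of Atpaf2 lies inside the GENCODE gene, downstream of its outermost start. Capitals mark the letters GGGCGG (SP1) and CCAAT on either strand.
Ndufaf3: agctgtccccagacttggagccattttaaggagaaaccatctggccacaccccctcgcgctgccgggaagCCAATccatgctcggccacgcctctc
Foxred1: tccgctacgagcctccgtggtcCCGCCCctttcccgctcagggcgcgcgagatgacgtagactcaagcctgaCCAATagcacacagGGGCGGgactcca
Surf1: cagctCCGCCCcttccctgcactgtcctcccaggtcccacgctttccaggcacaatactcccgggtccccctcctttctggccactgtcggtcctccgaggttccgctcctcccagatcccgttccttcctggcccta
Atpaf2: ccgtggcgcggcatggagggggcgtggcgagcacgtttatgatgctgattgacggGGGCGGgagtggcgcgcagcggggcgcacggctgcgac

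Foxred1 holds 2 SP1 matches and 1 CCAAT match in its stretch, Ndufaf3 a CCAAT match, and Surf1 and Atpaf2 an SP1 match each. RefSeq promoters of 300 bases, 250 before and 50 after the start, were matched by symbol for 36 of the 42 assembly factors, and not for Cox17, Cox18, Ndufaf6, Tmem70, Coa6 and Acad9. They were searched on both strands for 9 motifs, none of which contains another. GGGCGG (SP1) was found for 29 of the 36 assembly factors (80.6%), 68.7% of tested genes and 35.7% of all 32851 promoters. CCAAT was found for 18 (50%), against 42.3% and 37.4%. CCGGAAGT, the core of GABP sites, was found for 6 (16.7%), against 9.08% and 3.89%, namely Bcs1l, Cox10, Cox14, Cox15, Cox16 and Timmdc1. AAGATGGCG (YY1) was found for 4 (11.1%), against 3.66% and 1.40%, namely Atpaf2, Cox10, Ndufaf8 and Tmem126b. GCGCATGCG (NRF1) was found for 3 (8.33%), against 4.12% and 1.75%, namely Ndufaf4, Ndufaf5 and Ttc19. TGACGTCA (CRE) was found for Nubpl and Ttc19 (5.56%, against 3.48% and 1.79%), AACAAAG (SOX) for Cox20 alone (2.78%, against 4.61% and 5.85%) and CCCNNGGGA (EBF) for Uqcc2 alone (2.78%, against 9.48% and 6.56%). TCAAGGTCA (ERR) was found for 0, against 0.309% and 0.423%. The matches are letters in a window and no evidence of binding.

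Complex I, the largest of the complexes, is built from a peripheral arm with the NADH-binding and quinone-reducing (Q) modules and a membrane arm. Of its 14 factors 11 had an estimate below 0 and 2 were called lower, with a median log2 fold change of -0.24. Ndufaf3, which escorts the Q module together with Ndufaf4, was at 25.7 and 27.4 FPKM in Sox4f/f mice and at 16.6 and 18.8 FPKM in mice labelled Sox4-MKO. The labelled mean (17.7 ± 1.59 FPKM, SD, n = 2) was 66.7% of the Sox4f/f mean (26.6 ± 1.14 FPKM, n = 2), with no overlap. Its log2 fold change was -0.56 (SE 0.13, unadjusted p = 0.0103, adjusted p = 0.215), from -0.65 to -0.47 with each library left out, and the call was lost without Sox4f/f mouse 2 (-0.52). Foxred1, a FAD-containing oxidoreductase needed late in complex I assembly, was at 52.5 and 56.9 against 41.9 and 37.1 FPKM. The genotypes did not overlap and the labelled mean was 72.2% of the control mean (54.7 ± 3.11 to 39.5 ± 3.38 FPKM, SD, n = 2 each). Foxred1 had a log2 fold change of -0.46 (SE 0.13, unadjusted p = 0.0180, adjusted p = 0.236). Left-out values ran from -0.55 to -0.38, and the call was kept without mouse 1 labelled Sox4-MKO (-0.55) and lost without Sox4f/f mouse 1 (-0.52), Sox4f/f mouse 2 (-0.40) and mouse 2 labelled Sox4-MKO (-0.38). In GRCm38 (GENCODE M21) Ndufaf3 lies on the minus strand at chr9:108565537-108567434 and Foxred1 on the minus strand at chr9:35204206-35211055.

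Ndufaf4, the partner of Ndufaf3 at the Q module, had its values in the opposite order, 15.9 and 17.1 FPKM in Sox4f/f mice and 18.6 and 21.6 FPKM in mice labelled Sox4-MKO. Its genotypes did not overlap either, and its log2 fold change of 0.26 (SE 0.14, from 0.16 to 0.37 with each library left out) was not called (unadjusted p = 0.126). The difference between the responses of Ndufaf3 and Ndufaf4 was not tested. Ndufaf5, which hydroxylates an arginine of the subunit Ndufs7, was at 25.4 and 24.7 against 22.1 and 17.7 FPKM, and its partner Ndufaf8 was at 46.5 and 44.8 against 39.2 and 25.7 FPKM. Both had no overlap and log2 fold changes of -0.32 (SE 0.16, unadjusted p = 0.0952) and -0.51 (SE 0.22, unadjusted p = 0.0776), and in both the lowest value was that of mouse 2 labelled Sox4-MKO. Without mouse 1 labelled Sox4-MKO both were called lower, at -0.48 and -0.80. Ndufaf6, which takes part in early membrane arm assembly, varied most within a genotype, with 21.5 and 11.1 FPKM in mice labelled Sox4-MKO around 16.3 and 21.3 FPKM in Sox4f/f mice. Ndufaf7, a mitochondrial methyltransferase, was at 22.0 and 22.5 against 22.5 and 19.2 FPKM, and Nubpl, which delivers iron-sulphur clusters, at 6.21 and 7.16 against 6.365 and 6.05 FPKM. Their log2 fold changes of -0.10 (SE 0.14) and -0.09 (SE 0.16) were smaller than their errors. Ndufaf2, which binds late intermediates, was at 18.8 and 15.6 against 15.1 and 19.8 FPKM, with complete overlap and a log2 fold change of 0.01 (SE 0.19, unadjusted p = 0.956, from -0.17 to 0.20 with each library left out).

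The early membrane arm of complex I is built on the MCIA complex, of which Ndufaf1, Ecsit, Acad9, Tmem126b and Timmdc1 are known members. None of these 5 was called, and 4 had an estimate below 0, with a median log2 fold change of -0.22. Acad9, a relative of the acyl-CoA dehydrogenases of fatty acid oxidation, was at 26.2 and 29.3 FPKM in Sox4f/f mice and at 22.8 and 18.5 FPKM in mice labelled Sox4-MKO (-0.41, SE 0.16, unadjusted p = 0.0519). Ecsit, which is also a signalling adaptor, was at 48.5 and 57.6 against 43.7 and 38.7 FPKM (-0.35, SE 0.15, unadjusted p = 0.0643). Timmdc1 was at 27.6 and 28.3 against 26.0 and 21.8 FPKM (-0.22, SE 0.14, unadjusted p = 0.182). In these 3 genes both libraries labelled Sox4-MKO were below both Sox4f/f libraries. Tmem126b overlapped between the genotypes at 11.4 and 12.5 against 10.8 and 11.9 FPKM. Ndufaf1, the core member, was at 30.6 and 32.8 against 37.4 and 32.6 FPKM, with overlap and an estimate above 0 (0.14, SE 0.13, unadjusted p = 0.354, from 0.04 to 0.23 with each library left out).

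Complex II has only nuclear-encoded subunits, and its factors handle the flavin of Sdha (Sdhaf2 and Sdhaf4) and the iron-sulphur clusters of Sdhb (Sdhaf1 and Sdhaf3). None of the 4 was called, all 4 overlapped between the genotypes, and the log2 fold changes ran from -0.10 to 0.12, with a median of -0.07. Sdhaf2 was at 28.0 and 26.05 FPKM in Sox4f/f mice and at 25.0 and 26.5 FPKM in mice labelled Sox4-MKO, and Sdhaf4 at 37.5 and 38.0 against 40.0 and 32.0 FPKM. Sdhaf1 was at 12.3 and 11.7 against 11.9 and 10.4 FPKM. Sdhaf3 had the lowest level of the 42 genes, with a mean of 3.33 FPKM. It was at 3.35 and 2.95 against 3.21 and 3.80 FPKM (0.12, SE 0.19, unadjusted p = 0.559, from 0.02 to 0.21 with each library left out).

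Complex III needs the mitochondrially encoded cytochrome b at its start and the Rieske iron-sulphur protein as its last catalytic subunit. None of its 6 factors was called, 4 had an estimate below 0 and the median log2 fold change was -0.16. Uqcc1 and Uqcc2, which bind newly made cytochrome b, had the 2 levels next to that of Cox17, with means of 109 and 91.9 FPKM. Uqcc1 was at 111 and 128 FPKM in Sox4f/f mice and at 104 and 93.9 FPKM in mice labelled Sox4-MKO, with no overlap (-0.27, SE 0.13, unadjusted p = 0.105). Uqcc3, which stabilises cytochrome b, was at 45.7 and 41.6 against 36.3 and 28.8 FPKM, with no overlap and a p just above the limit (-0.42, SE 0.16, unadjusted p = 0.0512). It was called lower without mouse 1 labelled Sox4-MKO (-0.58). Uqcc2 was at 83.2 and 92.6 against 119 and 73.1 FPKM, so the libraries labelled Sox4-MKO lay on either side of the controls. Its log2 fold change of 0.08 (SE 0.26, unadjusted p = 0.755) became -0.26 without mouse 1 and 0.43, called higher, without mouse 2 labelled Sox4-MKO.

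The 3 Rieske factors all overlapped between the genotypes, and their median log2 fold change was -0.08. Bcs1l, the AAA protein that moves the Rieske protein across the inner membrane, was at 16.8 and 22.1 against 18.2 and 14.4 FPKM (-0.24, SE 0.20, unadjusted p = 0.296). Lyrm7, which holds the Rieske protein before its transfer, was at 5.24 and 5.82 against 5.40 and 4.96 FPKM (-0.08, SE 0.16). Ttc19, which helps to clear Rieske fragments from the complex, was at 15.2 and 12.6 against 14.2 and 13.9 FPKM (0.02, SE 0.15, unadjusted p = 0.887, from -0.10 to 0.15 with each library left out).

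Complex IV, cytochrome c oxidase, carries haem A and copper in its mitochondrially encoded subunits. Of its 15 factors 12 had an estimate below 0 and 3 were called lower, with a median log2 fold change of -0.15. Cox17, the copper chaperone that hands copper on to Sco1, Sco2 and Cox11, had the highest level of the 42 genes (mean of 394 FPKM). It was at 488 and 442 FPKM in Sox4f/f mice and at 338 and 309 FPKM in mice labelled Sox4-MKO. With no overlap, the mean went from 465 ± 32.4 to 323 ± 20.4 FPKM (SD, n = 2 each), or 69.5% of the control. The log2 fold change was -0.52 (SE 0.12, unadjusted p = 0.00967, adjusted p = 0.214), from -0.59 to -0.45 with each library left out, and the call was lost without Sox4f/f mouse 1 (-0.45). Cox17 lies on the plus strand at chr16:38346991-38352763, where it shares exon positions with Gm21987 on the same strand, which was listed at 0 in all 4 libraries.

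Sco2, which with Sco1 loads copper into the CuA site of subunit 2, had the largest estimate of the 42 genes and a wide spread. It was at 29.7 and 18.4 FPKM in Sox4f/f mice and at 10.7 and 14.6 FPKM in mice labelled Sox4-MKO. The genotypes did not overlap, and the mean went from 24.05 ± 7.92 to 12.6 ± 2.70 FPKM (SD, n = 2 each), or 52.6% of the control. The log2 fold change of -0.85 (SE 0.28, unadjusted p = 0.0323, adjusted p = 0.268) was kept as a call without Sox4f/f mouse 2 (-1.18) and lost without Sox4f/f mouse 1 (-0.53), mouse 1 (-0.65) and mouse 2 (-1.06) labelled Sox4-MKO. The call was also lost when the replicate number was blocked (unadjusted p = 0.0556 by limma), without moderation of the variances (0.158) and with the GC content and length correction (0.0757). The gene lies on the minus strand at chr15:89371637-89373846 and shares exon positions with Tymp on the same strand and Ncaph2 on the other, so its FPKM are uncertain. Tymp was at 0.772 to 1.37 FPKM, and Ncaph2 was at 26.3 and 24.2 against 20.6 and 18.4 FPKM and was itself called lower (-0.36, unadjusted p = 0.0481).

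The other copper factors were not called. Sco1 was at 8.40 and 9.99 FPKM in Sox4f/f mice and at 7.59 and 8.09 FPKM in mice labelled Sox4-MKO, with no overlap (-0.20, SE 0.16, unadjusted p = 0.262). Coa5 was at 100.2 and 88.2 against 81.7 and 77.5 FPKM, with no overlap (-0.24, SE 0.12, unadjusted p = 0.118). Cox11, which builds the CuB site of subunit 1, overlapped at 18.8 and 19.4 against 20.4 and 14.7 FPKM, and so did Coa6, a further factor of copper delivery to subunit 2, at 26.9 and 33.0 against 29.4 and 28.0 FPKM. Cox16, which also takes part in copper insertion into subunit 2, had the largest estimate above 0. It was at 55.6 and 52.0 against 75.8 and 56.8 FPKM, with no overlap (0.28, SE 0.17, unadjusted p = 0.172, from 0.08 to 0.49 with each library left out). It was called higher without mouse 2 labelled Sox4-MKO (0.49). Cox16 shares exon positions with the same-strand transcript Gm20498, so its FPKM are uncertain. Gm20498 was at 6.35 and 10.3 against 4.81 and 4.10 FPKM and was itself called lower (-0.75, unadjusted p = 0.0386 by limma). Cox19, a partner of Cox11, was at 33.0 and 33.6 against 39.4 and 28.5 FPKM, with the libraries labelled Sox4-MKO on either side of the controls (0.01, SE 0.19, unadjusted p = 0.957, from -0.22 to 0.24 with each library left out).

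Haem A is made from haem B by Cox10 and Cox15, and Surf1 acts in its insertion into subunit 1. All 3 genes had an estimate below 0, with a median log2 fold change of -0.34. Surf1 was at 40.0 and 36.4 FPKM in Sox4f/f mice and at 29.3 and 30.7 FPKM in mice labelled Sox4-MKO. With no overlap, its mean went from 38.2 ± 2.545 to 30.0 ± 1.01 FPKM (SD, n = 2 each), or 78.5% of the control. The log2 fold change was -0.34 (SE 0.12, unadjusted p = 0.0436, adjusted p = 0.293). The call was lost with any of the 4 libraries left out, at -0.27 without Sox4f/f mouse 1, -0.40 without Sox4f/f mouse 2, and -0.30 and -0.37 without mice 1 and 2 labelled Sox4-MKO. It was also lost when the replicate number was blocked (unadjusted p = 0.0734 by limma), with quantile normalization (0.0689), with scaling to the sum without mitochondrially encoded genes and Ucp1 (0.110) and with the GC content and length correction (0.122). Surf1 lies on the minus strand at chr2:26913381-26916530 and its exons overlap those of Surf2 on the other strand. Cox10 was at 19.1 and 20.4 against 16.6 and 14.3 FPKM, with no overlap (-0.34, SE 0.14, unadjusted p = 0.0683). Cox15 overlapped at 10.96 and 12.0 against 11.8 and 10.8 FPKM (-0.02, SE 0.14).

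The remaining complex IV factors bring its mitochondrially encoded subunits into the membrane. Cox14 and Coa3, which bind newly made subunit 1, were at 50.2 and 42.9 against 42.2 and 41.3 FPKM and at 57.15 and 65.0 against 62.5 and 49.6 FPKM. Cox18, which moves the end of subunit 2 across the membrane, was at 17.1 in both Sox4f/f libraries against 16.5 and 13.96 FPKM. Cox20, a chaperone of subunit 2, was at 52.7 and 63.3 against 55.8 and 60.1 FPKM (0.0043, SE 0.14, unadjusted p = 0.977, from -0.13 to 0.14 with each library left out). Cox14 and Cox18 did not overlap between the genotypes and Coa3 and Cox20 did, and none of the 4 was called, with a median log2 fold change of -0.14.

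Complex V is assembled from a catalytic F1 head, whose alpha and beta subunits are protected by Atpaf2 and Atpaf1, and a membrane part with the c-ring, for which Tmem70 is needed. Atpaf2 had the smallest p of the 42 genes. It was at 89.3 and 81.5 FPKM in Sox4f/f mice and at 50.9 and 54.6 FPKM in mice labelled Sox4-MKO, and the gap between the genotypes was wider than either within-genotype difference. The mean went from 85.4 ± 5.56 to 52.8 ± 2.63 FPKM (SD, n = 2 each), or 61.8% of the control. The log2 fold change was -0.68 (SE 0.12, unadjusted p = 0.00295, adjusted p = 0.196), and with each library left out it was called in 4 of 4 fits, from -0.75 to -0.62. Atpaf2 lies on the minus strand at chr11:60400626-60418457. Atpaf1, the chaperone of the beta subunit, overlapped at 18.1 and 24.2 against 21.7 and 15.6 FPKM (-0.17, SE 0.23, unadjusted p = 0.491). Tmem70 was at 79.8 and 83.6 against 67.8 and 68.75 FPKM, with no overlap and the smallest SE of the 3 (-0.26, SE 0.11, unadjusted p = 0.0694).

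**Figure D3:**
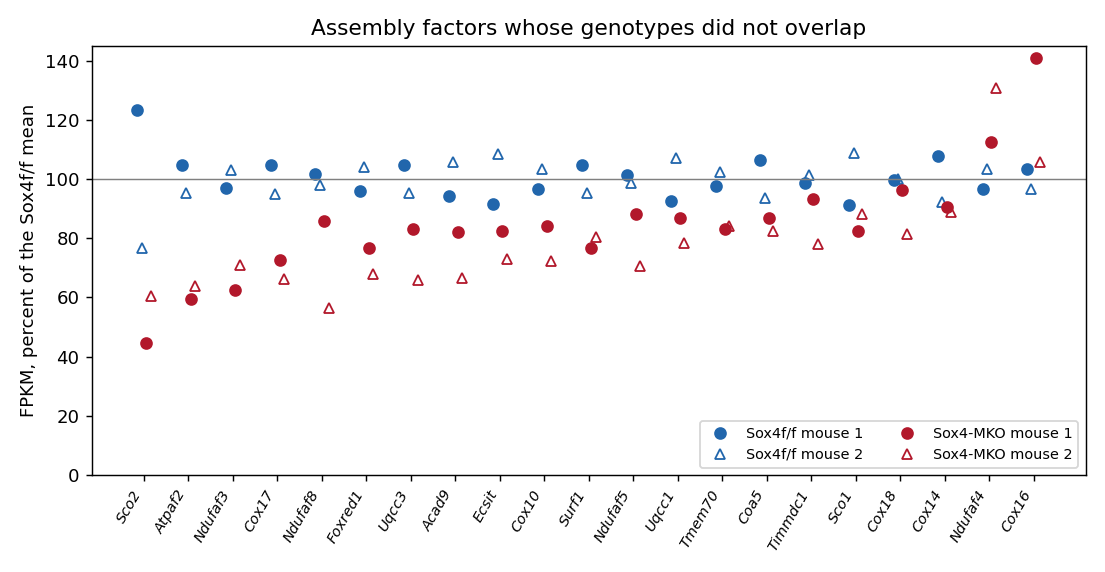
FPKM of the 21 assembly factors whose genotypes did not overlap, as percent of the Sox4f/f mean of each gene, for the same 4 mice. For 19 genes both red symbols lie below both blue ones and for Ndufaf4 and Cox16 above. Sco2 has the widest spread of the Sox4f/f mice, and Atpaf2 is at 61.8% on average in the libraries labelled Sox4-MKO.

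The subunits that these factors help to assemble were set beside them as a list of the same pathway. Of 82 nuclear-encoded subunits 81 were tested, 76 had an estimate below 0, 46 were called lower and 3 higher, and the median log2 fold change was -0.40, against -0.16 for the assembly factors. Both libraries labelled Sox4-MKO lay below both Sox4f/f libraries for 70 of the 81. The subunit median was -0.41 without Sox4f/f mouse 1 and -0.38 without Sox4f/f mouse 2. It was -0.53 and -0.29 without mice 1 and 2 labelled Sox4-MKO. Over all tested genes the medians of these 4 fits were -0.03, -0.06, -0.09 and -0.01. The count of subunits called lower depended on the setting also with all 4 libraries. It was 60 after scaling to a common median, 28 with a replicate block and 24 without moderation. Over all tested genes these settings gave 1244, 938 and 935 calls lower. Quantile normalization gave 21 calls lower and medians of -0.25 for the subunits and -0.14 for the assembly factors. Over all tested genes it gave 1145 calls lower and a median of -0.08, against -0.05 in the main fit. The medians of subunits and factors were -0.44 and -0.24 in complex I, -0.48 and -0.07 in complex II, -0.40 and -0.16 in complex III, -0.44 and -0.15 in complex IV and -0.32 and -0.26 in complex V. The subunits summed to 59588 and 59328 FPKM in Sox4f/f mice and to 47353 and 40427 FPKM in mice labelled Sox4-MKO, and the assembly factors made up 3.23% and 3.24% of the subunit sum in the former and 3.59% and 3.71% in the latter. The difference between the lists was not tested. The 3 subunits called higher, named after their values were seen, were Cox6a2, the heart and skeletal muscle isoform of a complex IV subunit (1.98 and 19.4 against 255 and 72.1 FPKM), and Atp5g1 and Atp5g3, which encode the c subunit of complex V (12.4 and 28.3 against 286 and 88.6 FPKM, and 241 and 236 against 567 and 334 FPKM). In all 3, mouse 1 labelled Sox4-MKO had the highest value. This mouse also had the highest sum of skeletal muscle markers, and a link between these values was not tested.

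**Figure D4:**
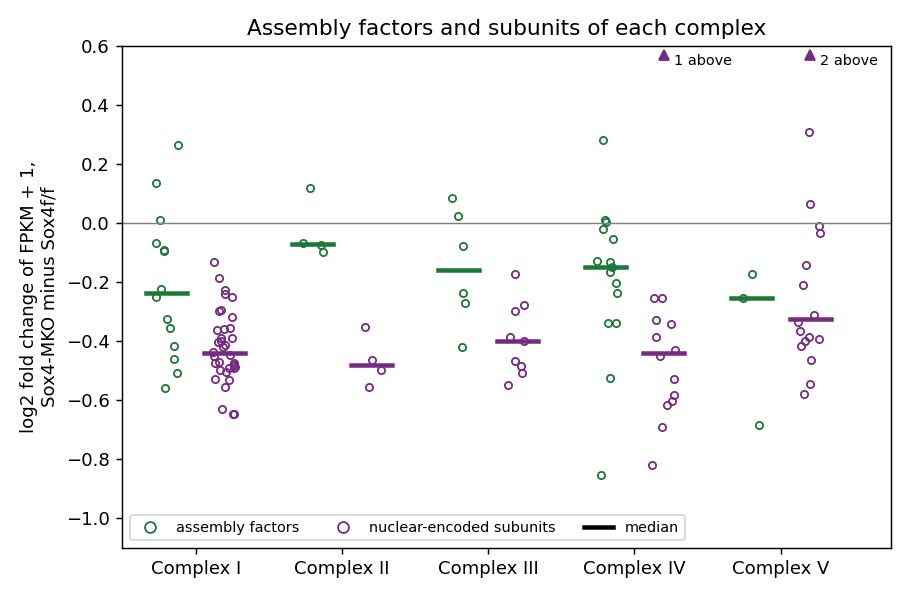
Log2 fold changes of FPKM + 1, Sox4-MKO label minus Sox4f/f, of the assembly factors (green) and the nuclear-encoded subunits (purple) of each complex, with a circle per gene and bars at the medians. Triangles stand for subunits above the axis, 1 in complex IV and 2 in complex V. The median bar of the subunits is lower than that of the factors in all 5 complexes, from -0.48 against -0.07 in complex II to -0.32 against -0.26 in complex V.

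Of 23 further assembly factors outside the 42 genes, 21 were tested and 19 had an estimate below 0, with a median log2 fold change of -0.26. Called lower were 4 (19.05%), against 8.28% of all tested genes. The 4, named after their values were seen, were Oxa1l, the insertase of the inner membrane (59.5 and 55.6 against 41.7 and 39.0 FPKM), Fmc1, a factor of complex V (216 and 234 against 172 and 154 FPKM), Coa7 (10.7 in both against 7.65 and 7.86 FPKM) and Higd2a (225 and 211 against 175 and 153 FPKM). Among 8 genes that follow mitochondrial content, such as Tfam, Cs and the Vdac genes, 5 had an estimate below 0 and 2 were called lower, with a median of -0.21.

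The spread between mice of a genotype was as large as many of the differences. Between the 2 Sox4f/f mice the assembly factors differed by a median of 0.13 on the log2 scale, irrespective of direction, and between the 2 mice labelled Sox4-MKO by 0.19. Of the 42 genes 30 were lower in mouse 2 than in mouse 1 labelled Sox4-MKO, as were 75 of 81 subunits and 7890 of 12877 tested genes. Mouse 1, with the higher assembly factor values, was also the mouse with the higher skeletal muscle marker sum (15086 against 2722 FPKM). Whether these values are linked was not tested. Without mouse 1 labelled Sox4-MKO the median log2 fold change of the assembly factors was -0.27, against -0.09 over all tested genes. Without mouse 2 labelled Sox4-MKO it was -0.09, against -0.01. Without Sox4f/f mouse 1 and mouse 2 it was -0.19 and -0.11, against -0.03 and -0.06.

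Assembly factor mRNAs were of middle to high abundance in BAT. Their mean FPKM ranked from the 24.9 to the 98.4 percentile of tested genes, with a median at the 77.9 percentile. Estimated from depth and the shortest annotated coding transcript, the values rest on 47.7 (Ndufaf2) to 5237 (Coa5) fragments in a library. These are low estimates where longer transcripts are expressed. The order of genes can change with the transcript, as for Cox17, whose shortest has 444 bases and whose median is 2067. On these estimates counting error alone is about 14.5% at the lowest and 6.15% at the median of the genes' lowest libraries. Levels between genes are comparable because FPKM are per length, as far as the transcript lengths used hold.

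Many assembly factors sit head to head with another gene. Of the 42, 14 (33.3%) had a protein-coding gene on the other strand whose annotated start lay within 1000 bp of their own, as had 1913 of 11659 tested protein-coding genes (16.4%). Of the 13 partners tested 10 had an estimate below 0, 1 was called lower and 0 higher, with a median log2 fold change of -0.15. The 1 called was Unc50, whose start is 36 bp from that of Coa5, at 38.5 and 37.8 against 29.4 and 28.7 FPKM (-0.38, SE 0.11, unadjusted p = 0.0223, adjusted p = 0.245). Surf2, the partner of Surf1, was at 14.4 and 11.2 against 8.36 and 10.0 FPKM (-0.43, SE 0.19, unadjusted p = 0.0740). Exon positions were shared with some other gene for 18 of the 42 assembly factors, for 4 of them on the same strand, and for these the counting could split or merge fragments. Impdh2, which overlaps Ndufaf3 on the other strand, was at 17.9 and 13.9 against 22.8 and 15.3 FPKM. The 24 assembly factors without shared exon positions had 19 estimates below 0, 2 calls lower (Foxred1 and Atpaf2) and a median log2 fold change of -0.19. Over all tested genes 8.28% were called lower, with a median of -0.05. The calls among these 24 genes and among the 13 partners are about as frequent as that.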

How the data were processed

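Total RNA of interscapular BAT was sequenced paired-end on an Illumina HiSeq, per the labels after column purification and a stranded mRNA kit, whereas the methods of the study name TRIzol and an Illumina kit. The authors deposited 1 FPKM value per gene and library. The submitters' processing notes name mm10, Cufflinks 2.1.1 and Cuffdiff, without roles. The aligner, annotation and strand setting are not given in the sources used here. FPKM are not counts, so no count model was fitted.

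limma 3.58.1 (R 4.3.3) was fitted to log2(FPKM + 1) of all 12877 genes with an averaged FPKM above 1 in a genotype, as in the study, with only genotype in the model and a trended eBayes prior. p-values are two-sided, called under 0.05 unadjusted as in the study, and adjusted by Benjamini-Hochberg over all genes tested. They rest on the spread between mice of a genotype, moderated towards a trend over all tested genes, and cover only these 4 mice. The fit was tested on simulated data. Groups came from the labels. Members and lists were chosen with earlier results of these data known. All 42 assembly factors may be named, with full statistics for those called, those opposite to the median of their complex, and the highest and lowest. Lists are described by counts and medians.

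No pairing of same-numbered mice is stated. The correlation of same-numbered deviations over genes was -0.012, which cannot exclude a pairing. Depth was estimated from the smallest FPKM steps of single-transcript genes. Positions are from GENCODE M21 (GRCm38, the same assembly as mm10) by symbol, and upstream sequences from RefSeq (GRCm38.p6). Of 82 subunit names 81 were matched, 2 by synonym. Alternatives left out each library, added a replicate block, or changed pseudocount (0.1, 0.01), FPKM limit (0.1, 5, none), scaling, moderation, and GC content and length correction.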

Additional observations from a re-analysis of the deposited data

How the results depend on the processing

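The number of assembly factors called lower (6) was 12 after scaling to a common median and 5 to 9 under the other settings with all libraries, and 0 were called higher in any of these. With each library left out in turn the calls lower ran from 2 to 8, the calls higher from 0 to 2 and the median log2 fold change (-0.16) from -0.27 to -0.088. Scaling to a common sum without mitochondrially encoded genes and Ucp1 gave a median of -0.087 for the assembly factors and 0.011 for all tested genes. In the main fit these medians were -0.16 and -0.05. This scaling gave 745 calls lower and 1322 higher over all tested genes, against 1066 and 1024, and the GC content and length correction 728 and 1225. No adjusted p passed for an assembly factor under any alternative.

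The replicate block, with numbers for which no pairing is stated, gave 5 calls lower and 0 higher among the assembly factors. Over all tested genes it gave 938 and 970. Sco2 and Surf1 lost and Uqcc3 gained a call. Surf1 also lost its call under quantile normalization, the sum without mitochondrially encoded genes and Ucp1, and the GC content and length correction, and Sco2 without moderation and with that correction.

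None of the 6 genes called lower changed sign under any alternative. Other estimates did. With the common median Ndufaf2 was at -0.0094, Cox19 at -0.012 and Cox20 at -0.018. With the GC content and length correction Ndufaf2 was at -0.0093, Ttc19 at -0.0098, Cox20 at -0.071 and Cox15 at 0.0099. With quantile normalization Sdhaf3 was at -0.020. With the sum without mitochondrially encoded genes and Ucp1, Sdhaf2 was at 0.0025, Cox15 at 0.045 and Coa6 at 0.017. With each library left out, the sign changed within these ranges: Ndufaf2 -0.17 to 0.20, Ndufaf6 -0.70 to 0.19, Ndufaf7 -0.20 to 0.013, Sdhaf4 -0.23 to 0.083, Ttc19 -0.10 to 0.15, Uqcc2 -0.26 to 0.43, Cox11 -0.36 to 0.093, Cox15 -0.084 to 0.041, Cox19 -0.22 to 0.24, Cox20 -0.13 to 0.14, Coa3 -0.29 to 0.036, Coa6 -0.20 to 0.092 and Atpaf1 -0.40 to 0.052. The cause was not tested. With 2 mice a genotype the SE of an assembly factor's log2 fold change was 0.11 (Tmem70) to 0.34 (Ndufaf6).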
